A study of Mus musculus with 12 samples.

Results

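The activity-induced immediate early genes *Arc*, *Fos*, *Fosb*, *Junb*, *Egr1*, *Egr2*, *Egr3*, *Egr4*, *Npas4* and *Nr4a1* were examined in the hippocampal m6A methylome of WT and *Tyrobp*-/- mice. Members were taken by gene symbol from the deposited peak lists, and 10 of 10 genes carried at least 1 m6A peak in each genotype. They held 26 of 33622 peaks in WT mice and 21 of 34935 peaks in *Tyrobp*-/- mice, while 56.8% of 21900 protein-coding RefSeq genes had a WT peak and 58.2% had a *Tyrobp*-/- peak. Each of the 10 genes had at least 1 peak matched between the genotypes. In *Egr2* and *Egr3*, however, the *Tyrobp*-/- peaks covered only 45.1% and 23.3% of the WT length. The 18 matched pairs of peaks count *Egr3* peaks that the lists give in 2 entries. Of these pairs 13 (72.2%) were narrower in *Tyrobp*-/- mice, beside 42.8% of all pairs. Peaks covered less exonic sequence there in 9 of 10 genes, beside 45.2% of all genes with peaks in both lists. Of the 21 *Tyrobp*-/- peaks 1 (4.76%) had no WT counterpart, beside 23.6% of all such peaks. Of the 26 WT peaks 7 (26.9%, beside 21.4% of all WT peaks) had no *Tyrobp*-/- counterpart. In enrichment, 1 of 18 matched pairs, in *Fosb*, was at least 2-fold lower in *Tyrobp*-/- mice (5.56%, beside 6.31% of all pairs). The shares of WT peaks without a counterpart and of 2-fold lower pairs lay near those over all peaks.

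The study compared hippocampi of male WT and *Tyrobp*-/- littermates at 6 months of age, with the strain labelled C57BL/6. *Tyrobp* encodes an adaptor of immune receptors that is found in microglia, and the mutant carries a 10-base TALEN deletion in exon 2 in all of its cells. Each genotype had 3 samples, each pooled from 3 mice, so the unit is a pool and not an animal. Every sample gave an IP library, made with an antibody against m6A, and an input library, 12 libraries in all. Peaks were called on the 3 samples of a genotype together. Each peak therefore has 1 fold enrichment (IP over input) per genotype with no replicate error, and the differences between genotypes below are ratios without a test.

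Immediate early genes are transcribed within minutes of neuronal firing, from factors already present in the cell. Most encode transcription factors that switch on later genes, and *Arc* encodes a protein that acts at the synapse itself. They are the usual markers of recently active neurons in the hippocampus, where their induction accompanies learning. The modification m6A is a methyl group placed on adenosines of mRNA, mainly near stop codons and in 3′ UTRs, and is known to bear on mRNA stability and translation.

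The promoters of these genes are shown first because they hold a sequence feature that the choice of genes did not use. The factor CREB binds the cAMP response element, whose core is TGACG, read as CGTCA on the other strand. RefSeq promoter windows (GRCm38.p6, 250 bases before to 50 after the start) were at hand for 7 members, and 7 of 7 held this core on either strand, against 23.0% of 27025 genes and 20.8% of 32851 windows. The full palindrome TGACGTCA, which contains both forms of the core, was in 0 of 7 members and in 2.03% of genes. The CArG box, bound by serum response factor, was in 1 of 7, *Egr2*, and in 1.81% of genes. *Arc*, *Egr1* and *Egr3* had no window, and sequence farther than 250 bases before the start was not searched. The absence of a motif here therefore holds for these windows only. A match is a description of these letters and not of binding. The core nearest to the start on the upstream side is given below in capitals, on the gene's own strand, with 10 bases on each side.
*Fos*, chr12:85473814-85473838, forward strand: ttccgcccagTGACGtaggaagtcc
*Fosb*, chr7:19310091-19310115, reverse strand: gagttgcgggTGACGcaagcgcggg
*Junb*, chr8:84978840-84978864, reverse strand: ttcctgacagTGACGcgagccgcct
*Egr2*, chr10:67537804-67537828, forward strand: tgggcagcgaCGTCAcgggtattga
*Egr4*, chr6:85513684-85513708, reverse strand: tggtcatttaCGTCAcggcgccagg
*Npas4*, chr19:4990126-4990150, reverse strand: cgtcacgggaTGACGtcggaagtct
*Nr4a1*, chr15:101266796-101266820, forward strand: cctctccatgCGTCAcggagcgctt

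Distances are from the start that each RefSeq window is built on. The first base of the core lay 40 bases before it in *Nr4a1*, 55 in *Egr2*, 60 in *Fosb* and 66 in *Fos*. It lay farther upstream in *Junb* (106 bases), *Egr4* (109 bases) and *Npas4* (169 bases). The window of *Nr4a1* held 4 such sites, those of *Fos*, *Egr2*, *Egr4* and *Npas4* held 2 each, and those of *Fosb* and *Junb* held 1. *Egr2* had 5 windows, and the one of the transcript with its strongest WT peak was used. In *Fos*, *Junb* and *Egr4* that start is the first base of the gene span given below. In *Fosb* (19310045), *Egr2* (67537869), *Npas4* (4989971) and *Nr4a1* (101266846) it lies inside the span, so the core printed for these 4 genes falls within the gene as annotated from other starts. In *Npas4* the core also lies downstream of a WT peak described below (4990196 to 4990316).

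Where the peaks lie is drawn in the map of peaks along the genes. *Arc*, on the reverse strand of chromosome 15 from 74669081 to 74672570 (GRCm38), encodes an effector of synaptic plasticity that promotes removal of AMPA receptors from the membrane. Its main peak ran from 74670952 to 74672210 in WT and from 74670982 to 74672001 in *Tyrobp*-/- mice, and carries the label 3′ UTR although it begins 360 bp from the gene's start. Its fold enrichment was 5.57 in WT and 4.41 in *Tyrobp*-/- mice (log2 ratio -0.34), and its covered length was 1259 and 1020 bp. The second peak of *Arc* lay 2 bp from the 3′ end in both genotypes. There the fold enrichment was 2.39 in WT and 2.84 in *Tyrobp*-/- mice (log2 ratio 0.25). In *Arc* the body peak was thus lower and the terminal peak higher in the mutant, both by less than 1.5-fold.

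**Figure D1:**
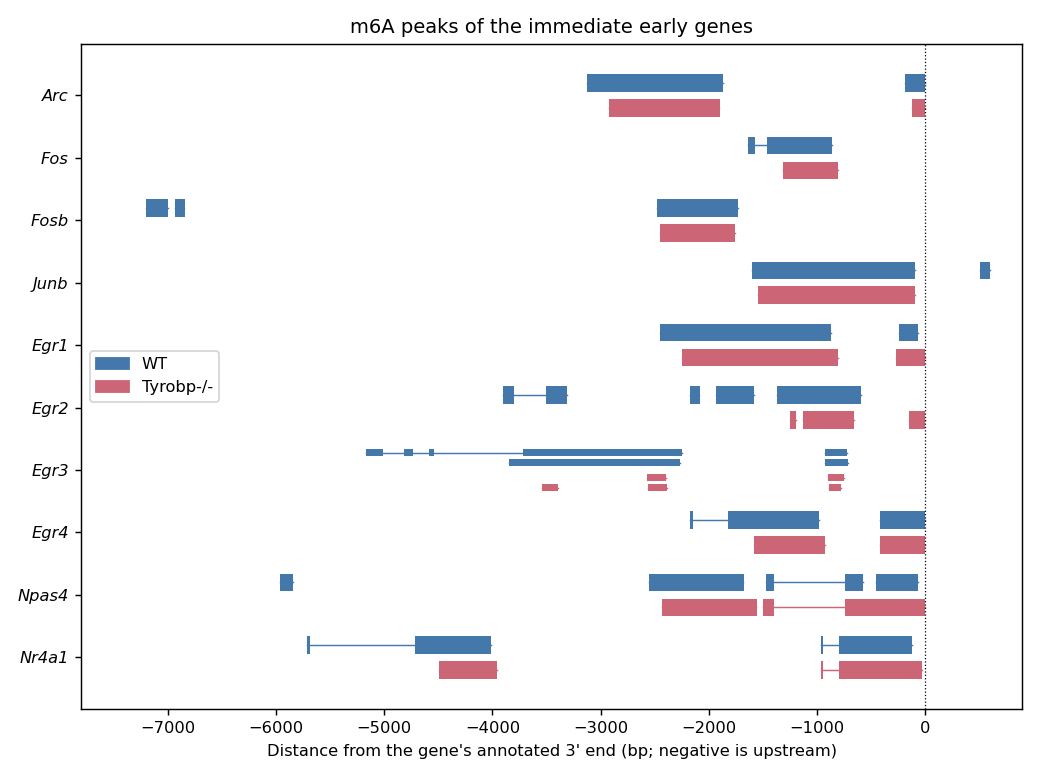
Positions of the m6A peaks of the 10 immediate early genes, with the distance from the gene's annotated 3′ end on the x axis (bp) and 1 row per gene. Blue bars (WT) and red bars (*Tyrobp*-/-) are exonic blocks of a peak, thin lines join blocks of the same peak, and the *Egr3* peaks are drawn in 2 rows per genotype because the lists give them in 2 entries. The upstream WT peaks of *Fosb*, *Egr2* and *Npas4* and the WT peak beyond the 3′ end of *Junb* have no red bar at their place.

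*Fos*, *Fosb* and *Junb* encode subunits of AP-1, a dimeric transcription factor of FOS and JUN proteins. *Fos* (chromosome 12, 85473890 to 85477274, forward strand) had 1 peak in each genotype. It ran from 85475638 to 85476410 in WT mice with a fold enrichment of 4.84. In *Tyrobp*-/- mice it ran from 85475964 to 85476469 with a fold enrichment of 3.97 (log2 ratio -0.29). The mutant's peak lacked the upstream exon block of the WT peak, and its label changed from an internal exon to the 3′ UTR.

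*Fosb* (chromosome 7, 19302696 to 19310118, reverse strand), whose truncated form ΔFosB is long known to accumulate with chronic activity, had the most strongly enriched WT peak of the group. This 3′ UTR peak (19304428 to 19305175) had a fold enrichment of 35.5 in WT mice, above 99.2% of all WT peaks. The matching peak of *Tyrobp*-/- mice (19304458 to 19305145) had a fold enrichment of 14.5, above 90.4% of all peaks of that genotype. The WT value was 2.45 times the *Tyrobp*-/- value (log2 ratio -1.29), while the covered length was similar at 748 and 688 bp. *Fosb* also had a pair of WT peaks in its 5′ UTR that *Tyrobp*-/- mice lacked, described below.

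*Junb* (chromosome 8, 84976909 to 84978748, reverse strand) carried 1 peak over most of its length, labelled 5′ UTR, from 84976999 to 84978511 in WT and to 84978451 in *Tyrobp*-/- mice. Its fold enrichment was 9.66 in WT and 7.56 in *Tyrobp*-/- mice (log2 ratio -0.35). For all 3 AP-1 genes the strongest matched peak was thus lower in *Tyrobp*-/- mice, by 1.22-fold in *Fos*, 1.28-fold in *Junb* and 2.45-fold in *Fosb*.

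The *Egr* genes encode zinc-finger transcription factors that bind GC-rich sites. *Egr1* (chromosome 18, 34861207 to 34864956, forward strand) had the most significant peak of the group by the peak caller's p. That peak ran from 34862503 to 34864087 in WT mice, with a fold enrichment of 8.7, a log10 p of -1440 and rank 652 among all WT peaks. In *Tyrobp*-/- mice it ran from 34862713 to 34864147, with a fold enrichment of 7.31 (log2 ratio -0.25), a log10 p of -647 and rank 1718. The terminal peak of *Egr1* went the other way. It spanned 180 bp with a fold enrichment of 1.83 in WT mice (34864715 to 34864894) and 270 bp with 3.22 in *Tyrobp*-/- mice (34864685 to 34864954), a log2 ratio of 0.82.

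*Egr2* (chromosome 10, 67534469 to 67542188, forward strand), also known for its part in myelination by Schwann cells, had 4 peaks in WT and 3 in *Tyrobp*-/- mice. The strongest lay in the 3′ UTR, from 67540817 to 67541592 in WT and from 67541056 to 67541532 in *Tyrobp*-/- mice. Its fold enrichment was 11.4 and 12.9 (log2 ratio 0.18), and its length 776 and 477 bp. A second, 61-bp peak of *Tyrobp*-/- mice (67540936 to 67540996, fold enrichment 5.24) lay inside the same WT peak. *Egr2* was thus enriched to a like degree over a shorter stretch in the mutant, and its other peaks did not overlap between the genotypes.

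*Egr3* (chromosome 14, 70077317 to 70082613, forward strand) differed most in the length of its peaks. The lists give its peaks in 2 entries that overlap, so these rows are not separate regions. The entries of the distal peak are shifted only slightly. The upstream WT peak differs more between them. Its second entry is 1 block of 1581 bp, from 70078769 to 70080349, without the upstream blocks of the first. In WT mice 1 peak ran from 70077442 to 70080368 across 4 exonic blocks of 1764 bp in all, with a fold enrichment of 3.7. The matched *Tyrobp*-/- peak ran from 70080040 to 70080219, 180 bp, with a fold enrichment of 3.31 (log2 ratio -0.16). A further *Tyrobp*-/- peak of 150 bp (70079067 to 70079216, fold enrichment 2.91) lay inside the WT span, given in 1 of the entries only. The distal 3′ UTR peak of *Egr3* was higher in *Tyrobp*-/- mice, with 4.87 in WT and 7.18 in *Tyrobp*-/- mice (log2 ratio 0.56), and 4.99 and 7.47 in the repeated entry.

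*Egr4* (chromosome 6, 85511121 to 85513589, reverse strand) had the same 418-bp 3′ UTR peak in both genotypes, from 85511121 to 85511538, with a fold enrichment of 17.6 in WT and 15.5 in *Tyrobp*-/- mice (log2 ratio -0.18). Its upstream peak ran from 85512105 to 85513291 in WT mice, in 2 exonic blocks that reach into the first exon, with a fold enrichment of 8.73. In *Tyrobp*-/- mice that peak ran from 85512045 to 85512701 with a fold enrichment of 14.0 (log2 ratio 0.68). Among the *Egr* genes, the strongest matched peak was lower in *Tyrobp*-/- mice for *Egr1* and *Egr4*, and higher for *Egr2* and *Egr3*.

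*Npas4* (chromosome 19, 4984353 to 5003439, reverse strand) encodes a factor induced by calcium entry in neurons and known to regulate inhibitory synapses. Its 3′ end carried 2 WT peaks, from 4984415 to 4984804 with a fold enrichment of 4.32 and from 4984924 to 4985822 with 7.28. *Tyrobp*-/- mice had a single peak over both, from 4984355 to 4985852, with a fold enrichment of 13.9. Set against the second WT peak the log2 ratio was 0.93, the highest among the matched peaks of the 10 genes. The upstream 3′ UTR peak covered 870 bp in both genotypes, with a fold enrichment of 5.77 in WT (4986032 to 4986901) and 6.7 in *Tyrobp*-/- mice (4985912 to 4986781), a log2 ratio of 0.22.

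*Nr4a1* (chromosome 15, 101253902 to 101274795, forward strand) encodes an orphan nuclear receptor, a transcription factor of the steroid receptor family with no established ligand. Its 3′ UTR peak began at 101273837 in both genotypes and ended at 101274675 in WT and 101274765 in *Tyrobp*-/- mice. The fold enrichment there was 4.75 and 3.79 (log2 ratio -0.33). The upstream peak had a fold enrichment of 4.43 in WT (101269080 to 101270778) and 5.36 in *Tyrobp*-/- mice (101270299 to 101270838), a log2 ratio of 0.27. The WT peak reached an upstream exon and carries the label 5′ UTR, and the *Tyrobp*-/- peak lay within 1 internal exon.

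Across the 10 genes, 18 pairs of peaks were matched by mutual best overlap. The median log2 ratio of *Tyrobp*-/- over WT fold enrichment was 0.009, beside 0.048 over all 23361 pairs, and 9 of 18 pairs were higher and 9 lower in *Tyrobp*-/- mice. At least 2-fold higher were 0 of 18 pairs, against 7.13% of all pairs. At least 2-fold lower was 1 of 18, the *Fosb* 3′ UTR peak, against 6.31% of all pairs. The first count depends on introns inside a peak being included in the overlap. Matched by exon blocks, 1 member pair was at least 2-fold higher, *Npas4* with 4.32 in WT and 13.9 in *Tyrobp*-/- mice. The share over all pairs matched that way is not given here. The quartiles of the members' ratios, -0.28 and 0.49, lay near those of all pairs, -0.29 and 0.39.

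**Figure D2:**
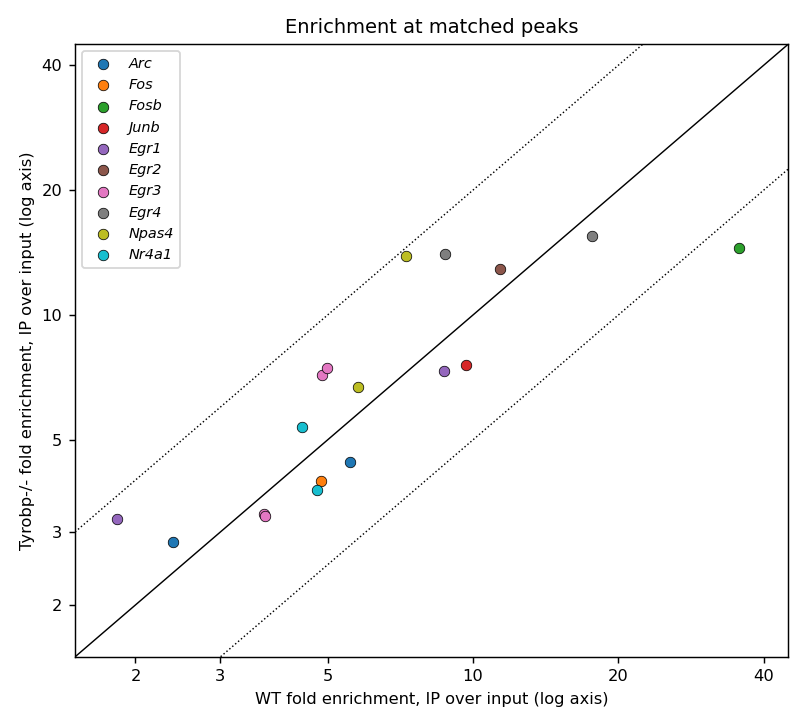
Fold enrichment (IP over input) of the 18 matched peaks of the immediate early genes in WT mice (x axis) and *Tyrobp*-/- mice (y axis), both log axes, 1 point per pair and 1 color per gene. The solid line marks equal values and the dotted lines a 2-fold difference, and only the *Fosb* point, at 35.5 and 14.5, lies outside them. Matched by exon blocks instead, *Npas4* would also lie outside them, at 4.32 and 13.9.

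The direction differed between the strongest matched peaks of the genes and the other matched peaks. This split was made after the values were seen. *Fos*, *Fosb*, *Junb* and *Egr2* had a single matched pair each, so the contrast is partly between genes. The matched peak that was strongest in WT mice was lower in *Tyrobp*-/- mice in 7 of 10 genes, with a median log2 ratio of -0.27, beside a median of 0.0 and 49.9% lower over 13660 genes. The exceptions were *Egr2*, *Egr3* and *Npas4*. With the repeated *Egr3* entries left out, 6 other pairs remained, of which 1 was lower in *Tyrobp*-/- mice, in *Egr3*, with a median of 0.26, beside 0.12 and 40.3% lower over 9379 such pairs. When the strongest peak was picked by its value in *Tyrobp*-/- mice instead, 6 of 10 were lower with a median of -0.22, beside 0.095 and 42.3% over all genes.

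Of the WT peaks, 7 of 26 (26.9%) overlapped no *Tyrobp*-/- peak, beside 21.4% of all WT peaks. They lay in 4 genes. *Fosb* had 2 in its 5′ UTR, from 19309543 to 19309633 (fold enrichment 2.93, log10 p of IP against input by exomePeak -2.13) and from 19309693 to 19309902 (4.69, log10 p -3.47). *Npas4* had 1 of 121 bp in the 5′ UTR of a shorter transcript, from 4990196 to 4990316 (4.88, log10 p -3.47). *Egr2* had 3, of which that from 67540251 to 67540609 in an internal exon was the most significant of the 7 (7.23, log10 p -12.5). The other two of *Egr2* ran from 67538283 to 67538874 in the 5′ UTR (6.84, log10 p -2.14) and from 67540013 to 67540102 (2.69, log10 p -4.31). The last, of 88 bp, was assigned to *Junb* through another transcript and lay 511 to 598 bp beyond the RefSeq 3′ end (2.76, log10 p -6.14).

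These WT peaks were weak calls beside the rest. Their median log10 p was -3.47, against -93.9 for the 19 WT member peaks with a counterpart, and over all WT peaks the same medians were -2.71 and -28.2. With peaks of FDR below 1e-5 only, in both lists, 2 of the 7 remained without a counterpart, those of *Junb* and of *Egr2* from 67540251. The share over all WT peaks at that cut is not given here. By label, 4 of 7 peaks in 5′ UTRs had no counterpart, beside 26.4% of all WT peaks in 5′ UTRs, and 0 of 14 in 3′ UTRs, beside 12.8%. In the other direction 1 of 21 *Tyrobp*-/- peaks overlapped no WT peak, beside 23.6% of all *Tyrobp*-/- peaks. It was the last 150 bp of *Egr2*, from 67542039 to 67542188 (fold enrichment 6.67, log10 p -2.32).

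By annotation, the 3′ UTR made up more of the members' peaks in *Tyrobp*-/- than in WT mice. In WT mice 14 of 26 member peaks (53.8%) carried the label 3′ UTR, 7 the 5′ UTR, 2 the first exon and 3 another exon. In *Tyrobp*-/- mice 17 of 21 (81.0%) carried the label 3′ UTR, 1 the 5′ UTR and 3 another exon. Over all peaks the 3′ UTR share was 47.2% in WT and 49.3% in *Tyrobp*-/- mice. Each peak has a single label even where it spans several features. Peaks of *Fos*, *Egr3*, *Egr4* and *Nr4a1* that reached less far upstream in *Tyrobp*-/- mice thus carry different labels in the 2 genotypes. For *Egr3* this holds in 1 of its 2 entries, and in the other both labels are 3′ UTR. With repeated rows left out, the 3′ UTR share was 50.0% in WT and 78.9% in *Tyrobp*-/- mice. With 1 peak per gene, the strongest, the 3′ UTR share was 80.0% in both genotypes.

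The exonic sequence covered by peaks was shorter in *Tyrobp*-/- mice for 9 of 10 genes, beside 45.2% of 14183 genes with peaks in both lists. It was 2108 bp in WT and 491 bp in *Tyrobp*-/- mice for *Egr3*, 23.3% of the WT length, and 1524 and 688 bp for *Egr2* (45.1%). The lengths were 1049 and 688 bp for *Fosb* (65.6%), 656 and 506 bp for *Fos* (77.1%), 1440 and 1141 bp for *Arc* (79.2%), and 1284 and 1075 bp for *Egr4* (83.7%). The remaining differences were small, with 90.8% of the WT length in *Junb*, 93.6% in *Nr4a1* and 96.6% in *Egr1*. *Npas4* was the exception, with 1622 bp in WT and 1710 bp in *Tyrobp*-/- mice (105.0%). The median log2 ratio of covered length was -0.30 for the 10 genes and 0.0 for all genes.

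**Figure D3:**
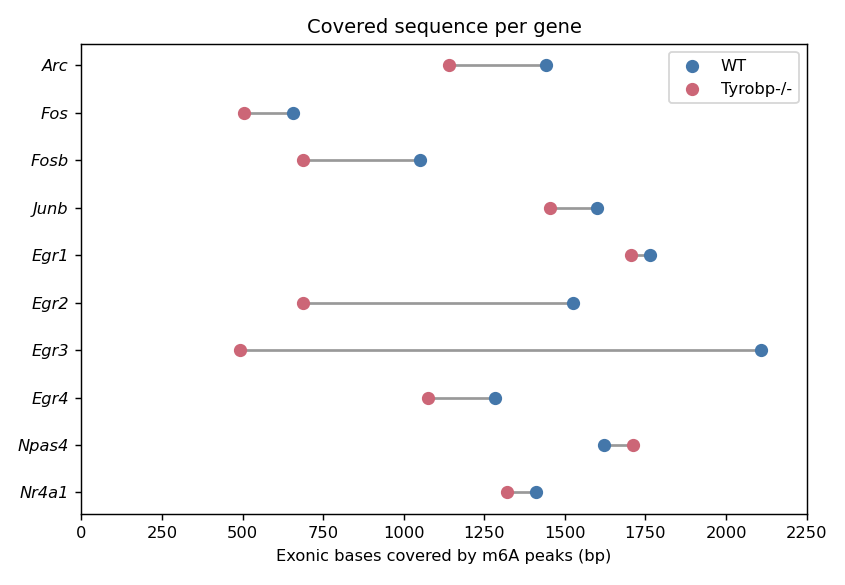
Exonic bases covered by m6A peaks in each immediate early gene (x axis, bp), with WT mice in blue and *Tyrobp*-/- mice in red, 1 pooled value each, joined by a line. The red point lies left of the blue one in 9 of 10 genes, farthest in *Egr3* (2108 and 491 bp), and right of it in *Npas4*.

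Single peaks were mostly narrower in *Tyrobp*-/- mice as well. Of the 18 matched pairs 13 (72.2%) were narrower and 3 (16.7%) wider in *Tyrobp*-/- mice, beside 42.8% and 44.5% of all pairs, and 13 had a weaker p there, beside 54.9% of all pairs. The wider ones were the terminal peaks of *Egr1*, *Npas4* and *Nr4a1*. These counts include the repeated *Egr3* entries, all of them narrower in *Tyrobp*-/- mice, and were not recomputed without them. The WT IP libraries had a median of 66972696 valid reads (61189368 to 71579536) and the *Tyrobp*-/- IP libraries a median of 63295282 (62814416 to 68297502), and the part of depth in the members' peak lengths was not tested. In these bulk samples, fewer cells of a type and less RNA per cell cannot be told apart, and the expression of the members is not analysed here.

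The deposited table that compares the genotypes holds 5640 regions, of which 2 lie in these genes. The paper reports far fewer significantly differing peaks, so a row there is not by itself a called difference. The share of all genes with a row is not given here. One is the terminal 3′ UTR peak of *Egr1*, given there as 300 bp from 34864655 to 34864954. The other is the *Npas4* region of 121 bp from 4990196 to 4990316, the same interval as the WT peak without a counterpart. The other 8 genes have no row there, *Fosb* included, and nothing is read from a row or its absence.

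Genes linked to the same response were described from 3 lists. The other early genes are 31 genes that include further AP-1 members, phosphatases and KLF factors, and 30 of them had a peak in WT and 29 in *Tyrobp*-/- mice. Their 45 matched pairs had a median log2 ratio of 0.08, with 1 at least 2-fold higher (2.22%, beside 7.13% of all pairs) and 4 at least 2-fold lower in *Tyrobp*-/- mice (8.89%, beside 6.31%). Of 62 WT peaks in this list 16 (25.8%, beside 21.4% of all WT peaks) had no *Tyrobp*-/- counterpart, and of 59 *Tyrobp*-/- peaks 6 (10.2%, beside 23.6%) had no WT counterpart. The late-response genes, 12 activity-induced genes that act on synapses and signalling, such as *Bdnf* and *Homer1*, had 29 WT and 34 *Tyrobp*-/- peaks. There 0 WT peaks and 6 *Tyrobp*-/- peaks (17.6%) lacked a counterpart, and the median log2 ratio over 26 pairs was 0.29, with 3 at least 2-fold higher (11.5%) and 2 lower (7.69%). The upstream factors, 19 kinases, coactivators and transcription factors that act on early gene promoters, had a median of 0.10 over 39 pairs, with 3 at least 2-fold higher (7.69%) and 2 lower (5.13%). Without a counterpart were 9 of their WT peaks (17.0%) and 7 of their *Tyrobp*-/- peaks (13.0%).

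The ratios furthest from equality among the other activity genes were taken at the matched peak of each gene that was strongest in WT mice. *Klf4*, a zinc-finger transcription factor, had a fold enrichment of 5.04 in WT and 14.3 in *Tyrobp*-/- mice (log2 ratio 1.505). *Elk3*, an ETS factor that works with serum response factor, had 9.77 and 26.4 (1.43), and *Mef2a*, an activity-regulated transcription factor, had 2.72 and 6.28 (1.21). In the other direction *Dusp6*, a phosphatase of ERK, had 12.9 in WT and 2.8 in *Tyrobp*-/- mice (-2.20). *Tiparp*, an ADP-ribosyltransferase, had 20.5 and 6.67 (-1.62), and *Srf*, serum response factor itself, had 4.53 and 2.08 (-1.12). *Jund* had a peak in WT mice only (fold enrichment 2.48) and *Rheb* in *Tyrobp*-/- mice only (1.78), and *Ptgs2* and *Nrn1* had none. Other peaks of some of these genes were stronger. The highest WT peak was 9.77 in *Klf4* and 30.3 in *Elk3*, and the highest *Tyrobp*-/- peak was 30.5 in *Elk3*, 8.95 in *Dusp6*, 12.9 in *Tiparp* and 13.3 in *Srf*, so that by their highest peaks *Srf* was higher and *Elk3* nearly equal in *Tyrobp*-/- mice. The *Fosb* log2 ratio of -1.29 lay below the 0.05 quantile of all matched pairs (-1.126). It lay just above the 0.05 quantile of the strongest pairs per gene (-1.319), and *Dusp6* and *Tiparp* were lower still.

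**Figure D4:**
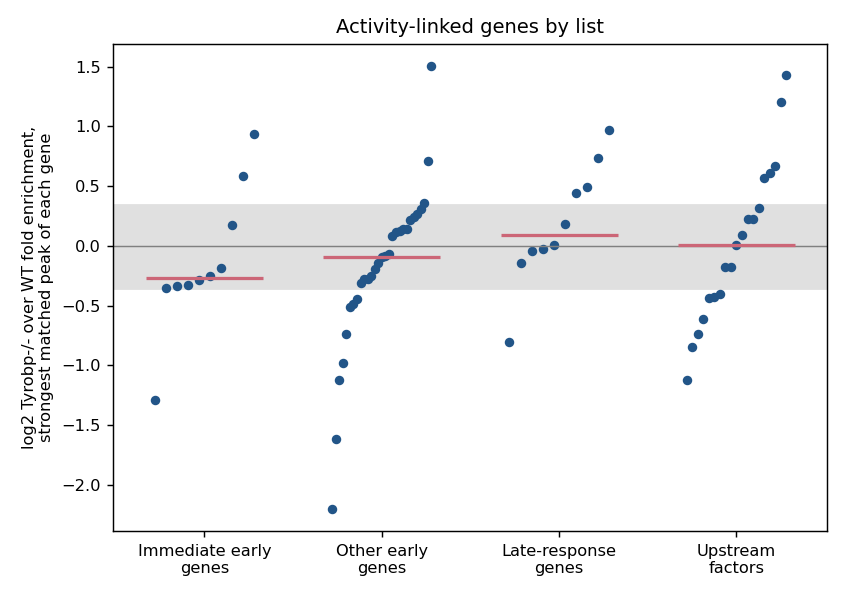
Log2 ratio of *Tyrobp*-/- over WT fold enrichment (y axis) at the matched peak strongest in WT mice, 1 point per gene, for the immediate early genes, the other early genes, the late-response genes and the upstream factors (x axis). Red bars are list medians, -0.27, -0.09, 0.095 and 0.009 in that order, and the grey line and band are the median (0.0) and quartiles (-0.36 and 0.34) of the same value over 13660 genes. The lists overlap widely, and all 4 medians lie within the band.

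Over all 12 libraries the valid reads were between 61189368 and 73554506. The mean GC content was 49.7% ± 0.541 (SD, n = 3) in WT IP and 48.9% ± 0.442 (SD, n = 3) in *Tyrobp*-/- IP libraries. *Tyrobp* itself has no row in either peak list, so the lists give no check of the deletion. Marker genes of neurons (5 of 5), hippocampal neurons (5 of 5), microglia (5 of 5), astrocytes (4 of 4) and oligodendrocytes (4 of 4) had a peak in each genotype. Of 5 hypothalamic markers, *Oxt* (fold enrichment 4.88) and *Trh* (1.86) had a peak in WT mice only, and *Pmch*, *Hcrt* and *Avp* had none. From RNA levels, the authors listed *Pmch* and *Hcrt* among the genes most upregulated in *Tyrobp*-/- mice. The part of these markers in the members' values was not tested. A peak list gives no expression level.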

How the data were processed

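MeRIP-seq data were analysed from hippocampal RNA, 3 pooled samples per genotype with an IP and an input library each. Reads were trimmed by the authors with fastp, aligned with HISAT2 to the mouse genome (v96, GRCm38), searched for peaks with exomePeak and the peaks annotated with ChIPseeker. Tool versions are not given in the sources used here. Per library, the deposited values are read counts before and after trimming and the percent of bases that are valid, reach Q20 or Q30, or are G or C. For each peak the authors deposited the fold enrichment, a ratio of IP over input, the p-value of IP against input, and its log10 and that of the FDR, read here as a score because strong peaks are written as minus infinity. Reads per peak are not in these files, so the depth behind a single value is unknown. The genotype comparison table deposited by the authors also holds their log2 fold change, p-value and log10 FDR, which were not used. Only its positions were read.

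The peak lists run through the chromosomes and then start again, with 832 WT and 880 *Tyrobp*-/- rows in the second run. The members had 3 and 4 rows there, those of *Egr3*, listed in 2 entries, and *Junb*. Peaks of the genotypes were called overlapping at 1 bp or more on the same strand, introns inside a peak included, and were matched by mutual best overlap within a gene, strand and run. A ratio of at least 2 was counted. Covered length is the union of exonic blocks. Positions are 1-based in GRCm38, and gene spans and promoters are from RefSeq. All peaks of the members are reported. Of the other activity genes, the 3 highest and 3 lowest ratios at the matched peak strongest in WT were named, with genes that had a peak in 1 list only, and *Ptgs2* and *Nrn1* for having none. The members and lists were chosen with earlier results of these data known. The matching step was also tested on simulated peaks. The software was Python 3.11.15, numpy 2.4.6, pandas 2.3.3, scipy 1.17.1 and matplotlib 3.10.9.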

Additional observations from a re-analysis of the deposited data

How the results depend on the processing

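Of 62 values recomputed under other settings, 52 stayed within 1.5 times the count, the binomial interval of the share or 0.1 of the median, and 10 did not. With a reciprocal overlap of 50%, 11 WT and 6 *Tyrobp*-/- member peaks had no counterpart, and the median log2 ratio was 0.178. With peaks of FDR below 1e-5, 2 WT and 0 *Tyrobp*-/- member peaks had none, because weak peaks are left out of both lists. The shares over all peaks at these settings are not given here, so these counts have no background. With 1 peak per gene the WT 3′ UTR share was 80.0%, and with 1 pair per gene the median log2 ratio was -0.269, or -0.217 when the pair was picked by its *Tyrobp*-/- value, a choice made after seeing the data. Matched by exon blocks, 1 member pair was at least 2-fold higher in *Tyrobp*-/- mice, *Npas4* with 4.32 and 13.9, and at 1.5-fold 3 were. The count of genes with less covered sequence in *Tyrobp*-/- mice was 9 of 10 at FDR below 1e-5. It was 8 of 9 when peaks under a fold enrichment of 4 were left out. Leaving out repeated rows moved none of the values recomputed that way past the limits above. Both sets of checks were chosen after seeing the data. The counts of narrower pairs and of pairs with a weaker p were not recomputed without repeated rows. No paired analysis was possible because peaks were called on the 3 samples of a genotype together, and for the same reason no sample could be left out in turn. Replicate error and the depth behind single peaks are unknown, so the ratios, that of *Fosb* included, cannot be told from sampling error.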
